A study of Rattus norvegicus with 8 samples.

Results

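In the prefrontal cortex (PFC) of adult rats, 28 promoter runs combined full-length array probes with a low methylation signal. A run was a series of at least 8 autosomal probes that lay at most 500 bp apart, and 20410 such runs were placed on the rn4 assembly. Every probe was 60 bases long in 500 of these runs (2.45%), whereas the other 19910 runs held at least 1 shorter probe. The signal of a run was its mean log2 ratio of bound over input DNA after quantile normalization, taken over all its probes and all 8 arrays. Runs at or below -0.45 on this scale formed the lowest 25%, and 28 of the 500 all-60-mer runs (5.6%) fell there. The 28 runs were thus chosen by their measured signal and their probe length, so their low level is given as a description and was not tested.

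DNA methylation in mammals sits mostly on cytosines followed by guanine, and the promoters densest in such sites, the CpG islands, are mostly unmethylated. Methylated DNA immunoprecipitation (MeDIP) pulls down fragments with an antibody against 5-methylcytosine, so that its yield depends both on the density of such sites and on the share of them that is methylated. Probes of tiling arrays are commonly shortened where GC-rich DNA would bind too tightly, and runs of full-length probes therefore tend to lie outside CpG islands. The genes and the base composition of the 28 runs were not analysed here, and each run is named by its rn4 position.

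The DNA came from the PFC (Cg1, Cg3 and IL) of male Sprague-Dawley rats at PND62, with 1 male per litter and 1 array per rat. The 4 control (Ctrl) rats, C180, C182, C184 and C185, had dams without stress sessions. The dams of the 4 prenatally stressed (PNS) rats, C141, C142, C144 and C145, were restrained under bright light in sessions of 45 min, 3 times a day, over the final week before delivery. Bound DNA (Cy5) and input DNA (Cy3) of a rat were amplified and hybridized together, and each of 4 slides carried a Ctrl rat at position 1 and a PNS rat at position 2. Array position and group therefore cannot be told apart.

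Arrays have no read depth, and the spread of their log ratios differed. Before normalization, the SD of log2 ratios was 0.712 in Ctrl C180, 0.672 in Ctrl C182 and 0.621 in PNS C141, against 0.994 to 1.23 on the other 5 arrays. The mean correlation of an array with the others was likewise lower for these 3 arrays, at 0.340 to 0.447 against 0.584 to 0.612. Results that rest on them are given with and without them.

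The 28 runs lay close to the limit rather than at the bottom of the range. Their signal ran from -0.68 to -0.45, with a median of -0.51, while the lowest of all runs reached -1.32. Below the lowest member lay 1756 runs, all with shorter probes. The median was -0.11 over the 500 all-60-mer runs and -0.20 over all runs. Runs with a shorter probe were in the lowest 25% more often, at 25.5% of 19910, so that all-60-mer runs made up only 0.549% of the 5103 low runs.

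**Figure D1:**
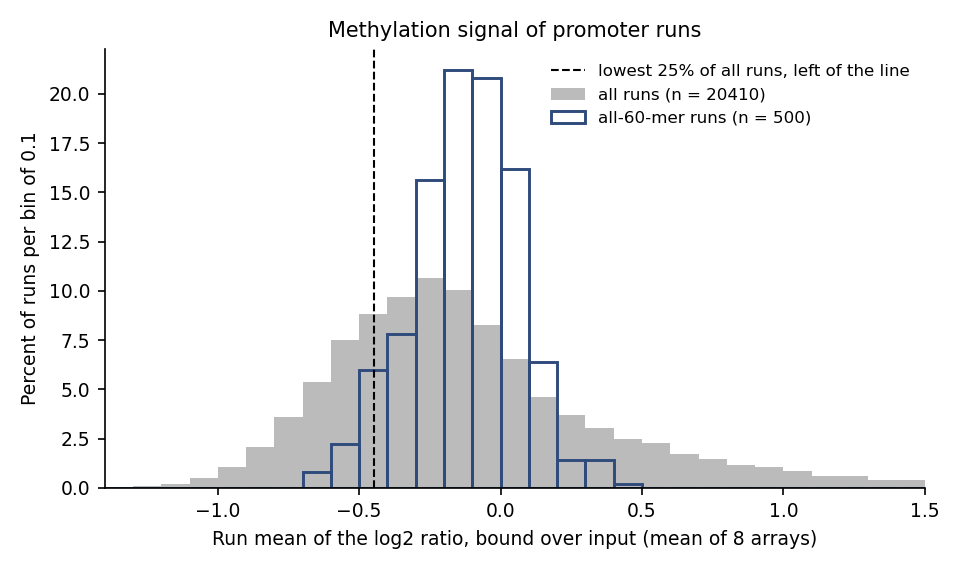
Distribution of the run mean log2 ratio of bound over input DNA (horizontal axis, mean of 8 arrays) as the percent of runs in each bin of 0.1 (vertical axis), for all 20410 runs in gray and the 500 all-60-mer runs in outline; the highest runs lie beyond the right edge. The dashed line marks the limit of -0.45, and the 28 members are the part of the outlined distribution to its left.

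The 28 runs were spread over 12 of 20 autosomes, with 5 on chromosome 1, 4 on chromosome 8 and 3 each on chromosomes 3, 4 and 13. Chromosome 3 held the most all-60-mer runs, 107, of which 3 were members (2.80%). The closest pair, chr3:97180794-97181900 and chr3:97606887-97607682, lay 0.426 Mb apart. The runs held 8 to 21 probes (median 11.5) over 371 to 1283 bp (median 1002 bp), 360 probes in all. Their probes started a median of 64.5 bp apart, compared with 72.0 bp over all runs, and the nearest other run lay at a median distance of 29.1 kb, compared with 18.2 kb. The densest surroundings belonged to chr1:162572204-162573191, with 112 other runs within 1 Mb, and the sparsest to chr9:31464568-31465268, with 3.

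The 5 lowest runs differed in how evenly the 8 rats shared the low signal. At chr4:156350473-156351743 (15 probes), the lowest, the run mean was -0.87, -0.52, -0.50 and -0.62 in Ctrl rats and -0.96, -0.64, -0.52 and -0.79 in PNS rats, in the order of the animals' numbers. All 8 rats lay at or below -0.50, the groups overlapped, and 7 of the 8 arrays placed the run in their own lowest 25%. At chr13:53231102-53232041 (9 probes), the values were -0.89, -0.81, -0.44 and -0.62 in Ctrl and -0.68, -0.63, -0.43 and -0.81 in PNS rats, in the same order of animals. Again the groups overlapped, with rats C184 and C144 of slide 3 highest.

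At chr4:167099699-167100981 (17 probes), the values were -0.76, -0.57, -0.75 and -0.95 in Ctrl and -0.10, -0.66, -0.34 and -0.84 in PNS rats. PNS C141 was the highest rat here, and the groups overlapped through PNS C142 and C145. This run had the widest spread of probe means within a run, 2.35 on the log2 scale, from -1.69 to 0.67 over 1283 bp. At chr5:165705411-165706366 (9 probes), the values were -0.45, -0.12, -0.99 and -1.06 in Ctrl and -0.28, -0.51, -0.68 and -0.78 in PNS rats. The arrays of slides 3 and 4 were low and those of slides 1 and 2 high in both groups. At chr18:44480693-44481926 (18 probes), the values were -1.18, -0.66, -0.30 and -0.47 in Ctrl and -0.58, -0.73, -0.44 and -0.40 in PNS rats, and Ctrl C180 alone set the low end.

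At the limit, the 3 members just inside were chr7:46043880-46045121 and chr1:162572204-162573191, both at -0.45, and chr1:71257651-71258697, also at -0.45. Just outside lay chr1:65791219-65791624 at -0.45, chr4:96995463-96995916 at -0.45 and chr14:72319614-72320706 at -0.44. These values differ by far less than the spread between arrays, whose median SD over the 8 arrays was 0.275 for the 28 runs. The member with the most probes, chr9:24247428-24248656 (21 probes, signal -0.52), ran from -1.79 to 0.25 among its probe means. Its run means were -0.995, -0.68, -0.47 and -0.25 in Ctrl and -0.86, -0.49, -0.10 and -0.34 in PNS rats, with slide 1 lowest and slide 2 next in both groups. Only 2 of the 28 runs had all their probe means below 0.

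No run was low on every array. On the 8 arrays, between 5 (PNS C144) and 28 (Ctrl C180) of the 28 runs lay in that array's own lowest 25%, 8 runs did so on at least 5 arrays, and 0 did so on all 8. The median of the 28 run means was -0.84 in Ctrl C180 and -0.60 in Ctrl C182, but -0.51 in C184 and -0.53 in C185. In PNS rats it was -0.33 in C141, -0.50 in C142, -0.35 in C144 and -0.41 in C145. Ctrl C180 gave the lowest value in 15 of 28 runs and PNS C141 the highest in 10. Because all 8 arrays entered the choice, the choice was repeated on 7 arrays and read on the 1 left out. Of the runs so chosen, 12 of 13 were low on Ctrl C180, whereas 4 of 44 were low on PNS C144 and between 8 and 13 of 20 to 37 on the other 6 arrays. On Ctrl C180, 52.8% of all all-60-mer runs were low, compared with 1.4% on PNS C144, so that a low all-60-mer run was common on the one and rare on the other.

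**Figure D2:**
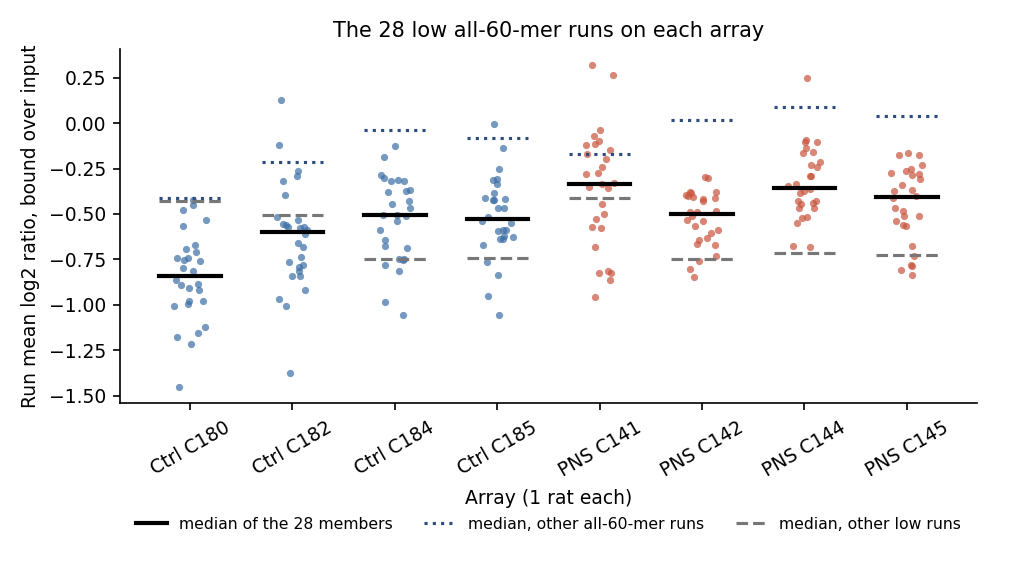
Run mean log2 ratio of bound over input DNA (vertical axis) of the 28 members on each array (horizontal axis, 1 rat each, Ctrl in blue, PNS in red), with each dot a run and the black line their median. The median falls to -0.84 in Ctrl C180 and lies between -0.60 and -0.33 on the other arrays, and dotted and dashed lines give the medians of the other all-60-mer runs and of the other low runs.

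The 28 runs were dimmer than most runs of the array but brighter than most all-60-mer runs. Brightness entered the rule through the ratio of both channels, so the contrast with other all-60-mer runs is not independent of the choice. It is given without a test. The input signal was well above background in a median of 30.6% of a member's spots, compared with 11% in the other 472 all-60-mer runs, 78.1% in the other 5075 low runs and 74.2% in all runs. The bound signal was well above background in 13.8% of a member's spots, compared with 5.03% in the other all-60-mer runs and 57.2% in the other low runs. The brightest member was chr5:165705411-165706366, with 69.4% of input and 50.0% of bound spots above background. The dimmest in the input was chr8:12123421-12124668, with 15.0%. Probes with a bright input on all 8 arrays numbered at least 3 in 12 of the 28 runs and 0 in chr4:113005523-113006705 and chr1:71257651-71258697.

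Many probes of these runs were at background in both channels. The log ratio given by the scanner software was exactly 0 at 336703 spots over the 8 arrays, of which 0 were well above background in either channel. In the processed signals the ratio of these spots varied less within an array than that of the other spots, and it differed between arrays. Its SDs were 0.00914 to 0.166 on the log2 scale, against 0.644 to 1.29 for the other spots. The span from the 5% to the 95% quantile was narrowest in PNS C141, at 0.0132, and widest in PNS C142, at 0.531. Over all probes at 0, the median log2 ratio after normalization was -0.01, 0.29, 0.37 and 0.34 in Ctrl rats and 0.21, 0.40, 0.39 and 0.37 in PNS rats, in the order given above. On each of the 4 slides the PNS array had the higher value of the pair. Of the 360 member probes, 44, 51, 83 and 84 were at 0 on the Ctrl arrays and 68, 80, 109 and 81 on the PNS arrays, in the same order. The other member probes had a median of -1.02 in Ctrl C180 and between -0.89 and -0.56 on the other arrays, below the value of the probes at 0 on every array.

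The 28 runs held fewer such probes than other all-60-mer runs. At least 1 array had the log ratio at 0 for 53.9% of the 360 member probes, compared with 77.8% of the 6460 probes of the other all-60-mer runs and 18.4% of those of the other low runs. With these probes left out, a setting chosen after the data had been seen, 283 all-60-mer runs kept at least 3 probes, and 144 of them (50.9%) were in the lowest 25%, among them 26 of the 28. The value table deposited beside the scanner files, which uses signals with the local background subtracted and has no value where a channel did not exceed it, put 404 of 500 all-60-mer runs (80.8%) in the lowest 25%, among them 27 of the 28. Median centring kept 16 of the 28 and added 0. The median percentile of the 28 among all runs was 19.6 as first measured, 2.66 in the value table, 6.74 without the probes at 0 and 24.1 under median centring.

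Along the run, the mean of the member probes lay between -0.62 and -0.39 in every stretch examined. From 700 to 500 bp and from 500 to 300 bp before the centre it was -0.39 ± 0.54 (SD over 23 probes) and -0.39 ± 0.50 (54 probes). From 300 to 100 bp before the centre it was -0.56 ± 0.55 (70 probes), and within 100 bp of the centre -0.62 ± 0.53 (80 probes). Beyond the centre it was -0.46 ± 0.55 from 100 to 300 bp (50 probes), -0.55 ± 0.60 from 300 to 500 bp (62 probes) and -0.61 ± 0.65 from 500 to 700 bp (21 probes). Probes of a run share its arrays, and these steps were not tested. Neighbouring probes moved together little. The mean correlation of adjacent probes across arrays, after removal of group means, was 0.0724 over 332 pairs in the 28 runs and 0.0915 in the other all-60-mer runs, compared with 0.292 in the other low runs and 0.299 in all runs.

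The comparison of interest was whether stress of the mother during gestation went with a different methylation signal in the adult offspring. The run mean was higher in PNS than in Ctrl rats in 25 of the 28 runs (89.3%), whereas 48.5% of all 20410 runs were higher. In the other 472 all-60-mer runs the share was 88.8%. The median difference, PNS minus Ctrl, was 0.23 on the log2 scale over the 28 runs, 0.17 over the other all-60-mer runs, -0.05 over the other low runs and -0.01 over all runs. The rule used the same arrays, and their parts in it were unequal. In an array's own lowest 25% lay 28, 22, 11 and 14 of the 28 runs on the Ctrl arrays. On the PNS arrays it was 11, 13, 5 and 9. Group differences of the 28 runs, here and below, are therefore not independent of the choice. The 3 runs with a negative difference were chr4:156350473-156351743 at -0.10, chr13:70951902-70952272 at -0.06 and chr6:2912586-2913497 at -0.04, each smaller than its standard error (0.145 to 0.190).

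The share that was higher differed with the length of the probes. Among all runs, the share that was higher in PNS rats fell from 88.8% in runs without a shorter probe to 57.6% where 25 to 50% of probes were shorter and to 29.0% where 90% or more but not all were, and was 34.9% where all of them were. The arrays differed by probe length too. Probes of 60 bases had a median of -0.21, -0.10, 0.05 and -0.01 in the Ctrl rats, against 0.19, -0.01, -0.10 and -0.06 for shorter probes, in the order of the animals' numbers. In the PNS rats the medians were -0.05, -0.00, 0.15 and 0.06, against -0.03, -0.07, -0.18 and -0.11. The median of 60-base probes thus lay above that of all shorter probes in Ctrl C184 and C185 and in PNS C142, C144 and C145. It lay below in Ctrl C180 and C182 and in PNS C141. Against probes of 45 and of 46 to 59 bases separately, it was above both in PNS C144 and Ctrl C184. In C184 it was 0.055, against 0.050 and -0.18. It was below both in Ctrl C180 and C182, and between them in Ctrl C185 and PNS C141, C142 and C145. Probes of 45 bases had the higher median there, at 0.18, 0.09, 0.22 and 0.19.

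After each array had been centred within each probe length, 22 of the 28 runs were higher in PNS rats, beside 52.4% of all runs and 70.2% of all-60-mer runs, and the median difference was 0.13. After removal of the probes at 0, 21 were higher, beside 50.1% of all runs and 71.0% of all-60-mer runs, with a median difference of 0.19. Under median centring, 20 were higher, beside 42.7% of all runs and 87.8% of all-60-mer runs, with a median difference of 0.07. The part of probe length and of dim spots in the direction was not tested further.

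**Figure D3:**
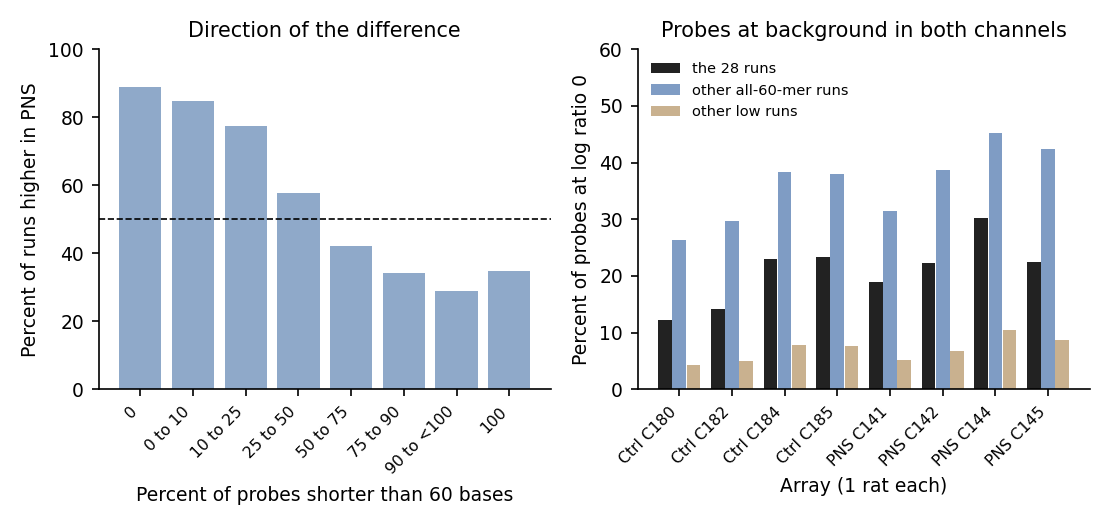
Left, the percent of runs with a higher mean in PNS than in Ctrl rats (vertical axis) by the percent of their probes that are shorter than 60 bases (horizontal axis); the dashed line marks 50%, and the bars run from 88.8% down to 29.0%, with 34.9% where every probe is shorter. Right, the percent of probes with a software log ratio of 0 on each array (1 rat each) in the 28 runs, the other all-60-mer runs and the other low runs; in the 28 runs it lies between 12.2% in Ctrl C180 and 30.3% in PNS C144.

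Within slides the difference was uneven. The median of PNS minus Ctrl over the 28 runs was 0.55 on slide 1, which held C180 and C141, and 0.16, 0.14 and 0.08 on slides 2, 3 and 4. The PNS rat was the higher of the pair in 25, 17, 22 and 17 of the 28 runs, and on all 4 slides in 8 runs. In the other 472 all-60-mer runs the medians were 0.24, 0.21, 0.13 and 0.12 on slides 1 to 4. The PNS rat was higher in 352, 362, 342 and 343 of these, and in 10039, 10407, 10145 and 10039 of all 20410 runs. The median of the 28 runs was thus below that of the other all-60-mer runs on slides 2 and 4. Without Ctrl C180, 21 runs were higher in PNS rats, beside 78.8% of all-60-mer runs, with a median difference of 0.15, the smallest among the 8 fits that left out 1 rat. Without the 3 arrays of narrow log ratios, 20 were higher, beside 77.6% of all-60-mer runs, and the median difference was 0.09, a comparison of 2 Ctrl with 3 PNS rats.

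On run means, 0 of the 28 runs passed an adjusted p of at most 0.2 in limma, and neither did any of the 20410 runs (0%). The adjusted p was 0.9998 for each of the 28. At an unadjusted p of at most 0.05, 5 of the 28 runs (17.9%) were past the limit, all higher in PNS rats, against 3.82% of all runs in either direction and 1.99% with a higher mean in PNS rats. All 4 PNS rats lay above all 4 Ctrl rats in 4 of the 28 runs (14.3%), compared with 1.8% of all runs. The reverse was found in 0 of 28, compared with 1.46%. Among the other 472 all-60-mer runs, 45 (9.53%) were past the same unadjusted limit, in either direction. Full separation with PNS rats on top was found in 28 of those 472 runs (5.93%), and the reverse in 2. Because the rule used the values of these arrays, the larger shares among the 28 runs are given as a description only. The smallest p that an exact permutation of 8 arrays into 2 groups of 4 can reach is 0.0286, and after adjustment over all runs the lowest value among the 28 was 0.877. With the slide as a block, 6 of the 28 had an unadjusted p of at most 0.05, compared with 5.27% of all runs, and the smallest adjusted limma p was 0.898. The run at chr7:104016883-104017852 then moved from an unadjusted limma p of 0.0427 to 0.0613, and chr4:113005523-113006705 from 0.123 to 0.0183.

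**Figure D4:**
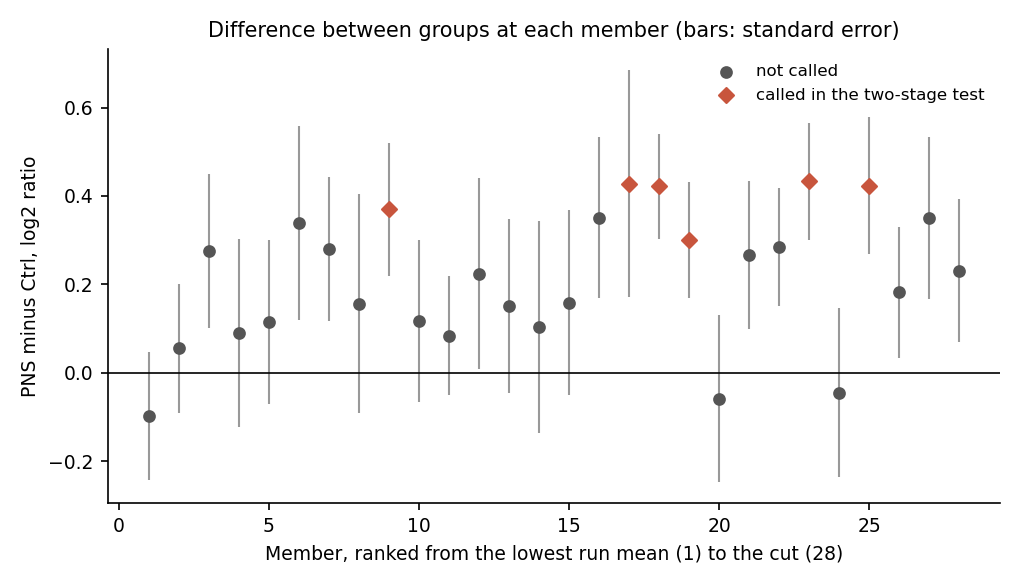
Difference in run mean between groups, PNS minus Ctrl on the log2 scale (vertical axis), with its limma standard error as bars, for each of the 28 runs ranked from the lowest signal to the limit (horizontal axis). Of the 28 points, 25 lie above 0, and the 6 red diamonds are the runs called in the two-stage test, between 0.30 and 0.43.

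Following the 2 stages of the study's methods, probes were tested first and whole runs second, from the ranks of their probes. Runs of neighbouring probes stood in for the study's promoters, and the study's Bayesian deconvolution was not used. In the first stage, an unadjusted limma p of at most 0.05 with a difference of at least 0.5, 30 of the 360 member probes (8.33%) passed, against 4.86% of 375108 probes. Of these, 28 were higher and 2 lower in PNS rats, against 2.61% and 2.25% of all probes. Of those 28 probes, 18 were at a software log ratio of 0 on at least 1 PNS array and 9 on at least 1 Ctrl array, and 9 were at 0 on no array. Among all 360 member probes, a mean of 84.5 per PNS array and 65.5 per Ctrl array were at 0. The second stage ranked the t-statistics of a run against the rest of the array (two-sided rank-sum test). Runs were called where the FDR was no higher than 0.2 and a probe had passed the first stage. This two-stage test called 6 of the 28 runs (21.4%), all higher in PNS rats, against 11.8% of all runs in either direction and 5.34% with a higher mean in PNS rats. In the other all-60-mer runs it called 103 of 472 (21.8%). The ranking takes the probes of a run as independent, although they share the same 8 arrays.

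Among the called runs, chr3:97180794-97181900 (20 probes) had the smallest FDR, 0.0147. Its run means were -0.56, -0.84, -0.78 and -0.52 in Ctrl and -0.27, -0.38, -0.14 and -0.18 in PNS rats, again in the order of the animals' numbers. The groups did not overlap, the PNS rat was the higher one on each slide, and the difference was 0.43 ± 0.133 (SE). It held 3 first-stage probes, all higher in PNS rats, and 17 of its 20 probes had a higher mean in PNS rats. At the probe at chr3:97181841-97181900, the values were 0.00, -2.64, -2.64 and 0.25 in Ctrl and 0.21, 0.39, 0.39 and 0.37 in PNS rats. That probe was at a software log ratio of 0 on all 4 PNS arrays and on 2 Ctrl arrays, and Ctrl C182 and C184 alone were low.

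At chr13:19393627-19394872 (20 probes, FDR 0.0300), the run means were -0.67, -0.74, -0.75 and -0.59 in Ctrl and -0.24, -0.38, -0.21 and -0.23 in PNS rats. The groups were narrow, with SDs of 0.0711 and 0.0759 (n = 4 each), and did not overlap. The difference was 0.42 ± 0.120 (SE), with the smallest unadjusted limma p of the 28 runs, 0.00441, and an adjusted p of 0.9998. Its 5 first-stage probes, spread over the whole run, differed by 0.97 to 1.84, and 2 of them were at 0 on no array. The largest, at chr13:19394123-19394182, read -3.43, -1.96, -1.58 and -1.87 in Ctrl and -0.23, -1.63, 0.90 and -0.52 in PNS rats, with an overlap between Ctrl C184 and PNS C142.

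At chr1:239888708-239889865 (9 probes, FDR 0.176), the run means were -0.98, -0.79, -0.51 and -0.39 in Ctrl and -0.20, -0.38, -0.10 and -0.29 in PNS rats. The groups were separate by a small margin, Ctrl C185 against PNS C142, and the difference was 0.42 ± 0.156 (SE). At chr7:104016883-104017852 (15 probes, FDR 0.154), they were -0.71, -0.61, -0.59 and -0.59 in Ctrl and -0.07, -0.42, -0.34 and -0.46 in PNS rats. The Ctrl rats were nearly equal (SD 0.0567, n = 4), and the difference was 0.30 ± 0.132 (SE). These 4 runs were the ones without overlap between groups.

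The groups overlapped in the other 2 called runs. At chr10:35869262-35870255 (14 probes, FDR 0.0821), the run means were -0.89, -1.01, -0.43 and -0.64 in Ctrl and -0.33, -0.49, -0.38 and -0.28 in PNS rats, and only Ctrl C184 reached into the PNS range. At chr4:113005523-113006705 (13 probes, FDR 0.0445), they were -0.80, -1.37, -0.32 and -0.31 in Ctrl and -0.57, -0.59, 0.25 and -0.18 in PNS rats. Here slides 1 and 2 were low and slides 3 and 4 high in both groups, and its difference of 0.43 had a standard error of 0.257, the widest of the 6. On each slide the PNS rat was the higher one, by 0.23, 0.79, 0.57 and 0.13 on slides 1 to 4, and with the slide as a block the unadjusted limma p was 0.0183. A further 3 runs had an FDR of at most 0.2 without a first-stage probe.

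**Figure D5:**
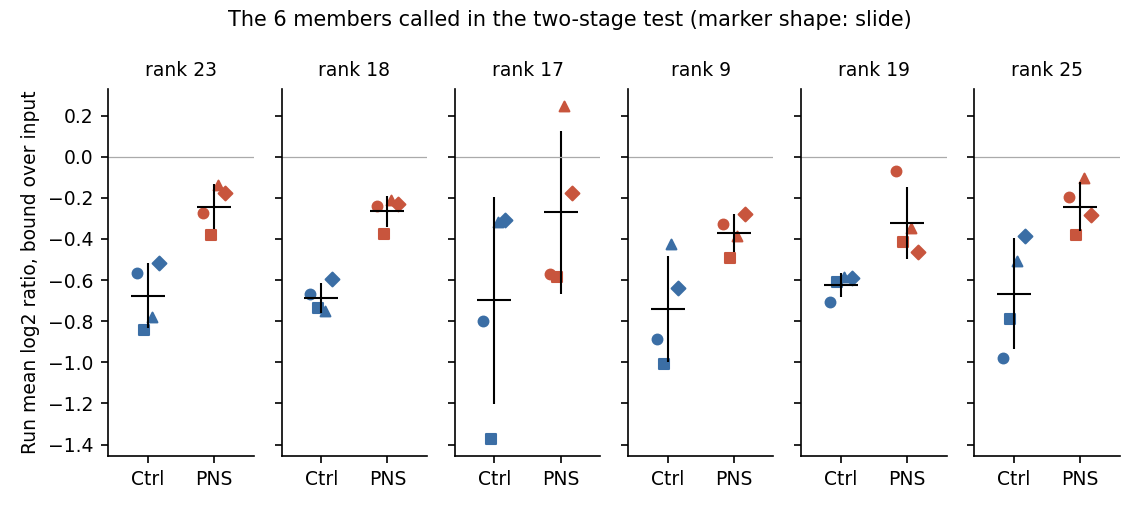
Run mean log2 ratio of bound over input DNA (vertical axis) in the 4 Ctrl and 4 PNS rats for the 6 runs called in the two-stage test, from left to right by rising FDR, each headed by its rank in signal among the 28; circles, squares, triangles and diamonds stand for slides 1 to 4, horizontal lines for group means and bars for SD (n = 4). The groups do not overlap in 4 of the panels, and overlap in those of rank 17, chr4:113005523-113006705, and rank 9, chr10:35869262-35870255.

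Of the 3 runs without a first-stage probe, chr8:40783144-40784409 (16 probes, FDR 0.0564) had run means of -0.98, -0.56, -0.75 and -0.59 in Ctrl and -0.45, -0.81, -0.23 and -0.27 in PNS rats. PNS C142 lay within the Ctrl range and the other PNS rats above it. At chr9:31464568-31465268 (11 probes, FDR 0.133), the values were -1.12, -0.78, -0.37 and -0.41 in Ctrl and -0.11, -0.41, -0.24 and -0.51 in PNS rats. The low Ctrl values came from C180 and C182, and the groups overlapped. At chr3:97606887-97607682 (8 probes, FDR 0.183), the values were -0.74, -0.59, -1.06 and -0.67 in Ctrl and 0.26, -0.85, -0.55 and -0.57 in PNS rats. All 8 of its probes had a higher mean in PNS rats, but PNS C141 alone lay above 0 and PNS C142 lay within the Ctrl range.

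In several of the remaining runs single arrays stood apart. At chr8:68340048-68341050 (10 probes), 1 of the 2 runs with every probe mean below 0, Ctrl C180 read -1.45, against -0.29, -0.54 and -0.31 in the other Ctrl rats, and the PNS rats read -0.81, -0.57, -0.43 and -0.17. Slide 1 was the lowest in both groups, and the spread of 0.548 (SD, n = 4) was the largest among Ctrl rats in the 28 runs. At chr2:29383917-29385155 (11 probes), the other such run, the values were -1.01, -0.57, -0.28 and -0.54 in Ctrl and -0.34, -0.53, -0.16 and -0.31 in PNS rats. Here too Ctrl C180 was the lowest rat, and the groups overlapped. At chr1:111563994-111564741 (12 probes, 6 of them spotted more than once), the values were -0.42, -0.26, -0.81 and -0.77 in Ctrl and 0.32, -0.76, -0.68 and -0.73 in PNS rats. The 3 arrays of narrow log ratios were the 3 highest there, and the 5 others lay between -0.81 and -0.68. At chr13:70951902-70952272 (8 probes), the shortest run, the values were -0.48, -0.97, -0.32 and -0.01 in Ctrl and -0.50, -0.67, -0.47 and -0.37 in PNS rats, with the Ctrl rats spread more widely on both sides. At chr6:2912586-2913497 (10 probes), Ctrl C182 lay above all other rats at 0.13, while the other Ctrl rats read -0.76, -0.69 and -0.42 and the PNS rats -0.53, -0.61, -0.29 and -0.48.

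The calls differed in how far they held. The run at chr13:19393627-19394872 was called in all 8 fits that left out 1 rat, and chr3:97180794-97181900 in 7 of them, all but the one without PNS C145. The other 4 called runs were called in 3 to 5 of these fits, and the number called among the 28 ran from 4 to 10, with 10 in the fit without Ctrl C184, where 13.3% of all runs were called. Over the 8 fits 7.2% to 22.3% of all runs were called, and the 22.3% came from the fit without PNS C141, where 4 of the 28 were called. The number of the 28 runs with an unadjusted limma p of at most 0.05 fell from 5 to 2 without Ctrl C180 or PNS C144 and to 3 without Ctrl C182. The share of all runs with such a p was 3.91% without Ctrl C180, 1.89% without PNS C144 and 3.44% without Ctrl C182. Without the probes at 0, only chr13:19393627-19394872 was called, 1 of the 28 against 8.97% of all runs, with a difference of 0.49 over the 10 probes that remained. With probes whose input was bright on all 8 arrays, 12 of the 28 runs could be tested. Of these, 0 were called, as against 8.5% of all runs, and 1 reached 0.05 or less in the unadjusted limma p, as against 2.34%. Without the 3 arrays of narrow log ratios, 2 of the 28 runs were called in the two-stage test, chr13:19393627-19394872 and chr3:97180794-97181900, against 18.9% of all runs. In that fit these 2 and chr5:165705411-165706366 also passed an adjusted limma p of at most 0.2 on run means, 3 of the 28 runs against 10.2% of all runs.

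Single probes with the strongest differences lay in runs without a call as well. The smallest unadjusted limma p among the 360 member probes was at chr13:53231102-53231161, with values of -1.36, -0.60, -0.69 and -1.19 in Ctrl and 0.21, 0.38, 0.39 and 0.22 in PNS rats. The groups were wide apart, but the probe was at a software log ratio of 0 on all 4 PNS arrays, and the adjusted limma p was 0.968. Lower values in PNS rats among first-stage probes were found in chr4:156350473-156351743 (-1.01 ± 0.379, SE) and chr8:12123421-12124668 (-1.45 ± 0.516, SE), and neither probe was at 0 on any array.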

How the data were processed

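MeDIP-chip was performed on the PFC of 4 Ctrl and 4 PNS rats, 1 array each. The authors extracted the spot intensity of the bound (Cy5) and input (Cy3) channels with Agilent Feature Extraction (10.7.3.1 in the submitters' processing notes), and the deposited intensity values were background-corrected and dye-normalized within each array. The deposited log10 ratio of the software and the deposited table of quantile-normalized log2 ratios served as alternatives. The scale and direction of that table were settled by matching it with the scanner values.

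Control spots were removed, as were 405 spots that the software marked for saturation or uneven signal on 1 or more arrays. Repeats of a probe were averaged, and log2(bound/input) of 375108 probes was quantile-normalized. PNS and Ctrl were compared with limma 3.58.1 (lmFit, eBayes) in R 4.3.3 over all probes and over all runs, without a block. The rank-sum stage covered the 25622 runs of at least 3 probes on the whole array, chromosome X included, with Benjamini-Hochberg adjustment. Exact two-sided permutation over 70 assignments was an alternative.

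The runs, limits and alternatives were chosen with earlier results of these data known. The runs named are the 5 of lowest signal, 3 on each side of the limit, up to 5 in each direction without overlap between groups, the 5 of smallest FDR among those called, and those with the most probes and the widest probe range. Other runs and the single probes were named after their values had been seen.

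The alternatives were median centring, the software's ratio, the deposited table, a normexp correction (on median signals, since no mean signals are among the columns used), loess within arrays, flagged spots kept, bright input spots only, the slide as a block, an intensity trend, each rat left out, and other limits on gap, signal, difference and FDR. Centring within probe length, removal of the 3 narrow arrays together, removal of probes at a software log ratio of 0, and gaps counted as bases in between were chosen after seeing the data. The study's Bayesian deconvolution was not used here. The calculations were tested on simulated arrays whose probes were drawn independently, so that test does not bear on calls among correlated probes. The number of arrays limits the precision, and 0 pairs of arrays held identical values.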

Additional observations from a re-analysis of the deposited data

Results flagged for a closer look

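Of 66 groups of 4 arrays examined, 3 held an array far from the other 3 by Dixon's criterion, and chance alone gives about 3.3. At chr1:111563994-111564741, PNS C141 had a run mean of 0.32, while the other PNS rats lay between -0.76 and -0.68. The raw log2 ratios had an SD of 0.621 in PNS C141 and 1.16 to 1.23 in the other PNS rats. The mean correlation with the other arrays was 0.340 for PNS C141 and 0.589 to 0.612 for the other PNS rats. All 3 concern the same array.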

How the results depend on the processing

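Of 307 values for named runs under the alternatives, 21 changed sign, and the cause was not tested. With median centring there were 16 low all-60-mer runs in place of 28, the 28 held 3 calls in place of 6, 2 unadjusted p-values of at most 0.05 in place of 5 and a median difference of 0.070 in place of 0.23, and chr13:53231102-53232041, chr5:165705411-165706366 and chr18:44480693-44481926 turned to -0.083, -0.035 and -0.054. The software's ratio gave 3 calls. The value table gave 404 low runs, 2 calls, 3 such p-values and -0.10 at chr18:44480693-44481926. Normexp gave 17 low runs, 0 calls, 0 first-stage probes in place of 30, 2 such p-values, a median of 0.048, and 0.018 and -0.029 at chr4:156350473-156351743 and chr5:165705411-165706366. Loess gave 16 low runs, 3 calls, 17 first-stage probes and -0.032 at chr13:53231102-53232041. Bright probes gave 0 calls, 2 first-stage probes, 1 such p-value, 9 of 12 higher in PNS rats, a median of 0.10 and -0.12 at chr5:165705411-165706366. The lowest 20% held 14 runs, 1 call, 12 first-stage probes, 1 such p-value and 13 higher in PNS rats, and the lowest 30% held 47 runs, 39 of them higher. An FDR of 0.05 left 3 calls. Of the settings chosen after seeing the data, centring within probe length gave 3 calls, 3 such p-values, and -0.047 and -0.012 at chr13:53231102-53232041 and chr5:165705411-165706366. Without the 3 narrow arrays there were 9 low runs, 2 two-stage calls, 3 calls on run means in place of 0, a median of 0.089, and -0.085, -0.17 and -0.049 at chr13:53231102-53232041, chr18:44480693-44481926 and chr7:46043880-46045121. Without probes at 0 there were 144 low runs, 1 call, 11 first-stage probes, 2 such p-values, and -0.28 and -0.0074 at chr13:53231102-53232041 and chr5:165705411-165706366. Calls made up 16.7% of all runs with median centring, 10.65% with the software's ratio and 11.8% with the value table. They made up 3.78% with normexp, 7.53% with loess and 4.15% at an FDR of 0.05. Of all runs, 7.67% were called with centring within probe length, 18.9% without the 3 narrow arrays and 8.97% without probes at 0. Such p-values were found in 2.89% of all runs with centring within probe length and in 2.89% without probes at 0. Of all probes, 0.63% passed the first stage with normexp, 4.48% with loess, 4.09% with bright probes and 4.57% without probes at 0. With 1 rat left out, low runs ranged from 13 to 44, calls from 4 to 10, and such p-values from 2 to 6. Of all runs, 7.2% to 22.3% were called in these fits, and 1.89% to 11.3% had such a p-value. Differences then ranged from -0.017 to 0.13 at chr13:53231102-53232041, from -0.041 to 0.28 at chr5:165705411-165706366 and from -0.064 to 0.23 at chr18:44480693-44481926.

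In the fit with slide as replicate block, the same 6 runs were called in the two-stage test, against 12.3% of all runs, and 0 on adjusted run means. Unadjusted limma p-values of at most 0.05 went from 5 to 6, against 5.27% of all runs, with chr7:104016883-104017852 lost and chr4:113005523-113006705 gained. The replicate numbers follow the slides. The deviations of paired arrays correlated at 0.37, 0.42 and 0.43 on slides 1, 3 and 4 but at -0.42 on slide 2, against a mean of -0.046 for arrays of different slides. Arrays give no depth, and weak signal over background limits most of these runs.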

Other observations

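Chromosome X was not among the 20410 runs. It held 870 further runs of at least 8 probes, 43 of them all-60-mer, and 2 of these lay at or below the autosomal limit. At chrX:43199680-43200790 (19 probes, signal -0.49) the run means were -0.24, -0.71, -0.44 and -0.59 in Ctrl rats and -0.76, -0.69, -0.20 and -0.32 in PNS rats, in the order of the animals' numbers. Both groups covered the same range, and here PNS C141 was the lowest array. At chrX:122728864-122730128 (14 probes, signal -0.46) they were -0.81, -0.87, -0.59 and -0.28 in Ctrl and -0.45, -0.40, -0.29 and 0.03 in PNS rats. Only Ctrl C185 reached into the PNS range there. The fits on run means left chromosome X out, and its results in the two-stage test were not examined here.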
